A study of Mus musculus with 24 samples.

Results

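TBR2+ cells and cells negative for both PAX6 and TBR2 were compared by RNA-seq after sorting from the embryonic mouse cortex at E15.5. The sample titles gave the 2 groups: 4 libraries of WT TBR2+ cells, labelled as intermediate progenitors, and 4 libraries of WT PAX6-TBR2- cells, which stained for neither marker and are described as neurons. These are 8 of the 24 libraries of the series, which also holds PAX6+ cells (radial glia) and the same 3 populations of a Prdm16 knockout. Every WT embryo carried 2 floxed alleles of Prdm16 (Prdm16 flox/flox) with no Cre named, so the floxed alleles are shared by both groups. The KO libraries carry Emx1-Ires-Cre in addition, a recombinase driven from a locus active in dorsal telencephalic cells. The replicates are described as biological, without the embryos or litters behind each library, so the p-values measure the spread between these libraries. Whether cells positive for both proteins were kept in the TBR2+ gate is not given either.

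TBR2, encoded by Eomes, is a T-box transcription factor of cells that leave the ventricular surface of the developing cortex. These intermediate progenitors arise from radial glia, divide a limited number of times in the subventricular zone and give rise to glutamatergic projection neurons. New neurons then migrate along radial fibres into the cortical plate, extend axons and acquire the channels and release machinery of a mature cell, while GABAergic interneurons reach the same tissue from the ventral forebrain.

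Totals were 6.42 to 7.6 M counts in the TBR2+ libraries and 4.95 to 8.64 M in the PAX6-TBR2- libraries, apart from 30.03 M in PAX6-TBR2- replicate 4. Transcripts of the mitochondrial genome made up 24.7% to 33.1% of counts in TBR2+, against 20.4% to 26.1% in PAX6-TBR2-. The first principal component held 79.0% of the variance and separated the populations. Each population has its own prefix in the library names, so a difference in handling or sequencing and a difference of population cannot be told apart in any result below. In bulk RNA, fewer cells of a type and less RNA per cell cannot be told apart either. Levels are CPM, counts scaled to the library total with TMM factors over the 8 libraries, and can be compared between libraries for 1 gene, but not between genes.

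The sorted markers were read first, as a check of the labels. Eomes (ENSMUSG00000032446; GRCm38 chromosome 9, 118478212 to 118486132, plus strand) had 924, 791, 888 and 777 CPM in TBR2+ replicates 1 to 4, against 19.4, 56.1, 19.5 and 59.2 CPM in PAX6-TBR2- replicates 1 to 4. Pax6, the radial glial factor used for the other gate, had 272, 227, 204 and 175 CPM in TBR2+, against 17.3, 39.7, 17.5 and 35.2 CPM in PAX6-TBR2-. Both genes were low in all PAX6-TBR2- libraries, with replicates 2 and 4 above replicates 1 and 3 in each case. Prdm16, a zinc finger regulator of radial glia and the gene targeted elsewhere in the series, had 45.6, 41.9, 72 and 42.5 CPM in TBR2+, against 12.5, 23.8, 25.4 and 30.7 CPM in PAX6-TBR2-. Its log2 fold change, TBR2+ over PAX6-TBR2- as throughout, was 1.08 (SE 0.22, adjusted p = 0.0009079).

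**Figure D1:**
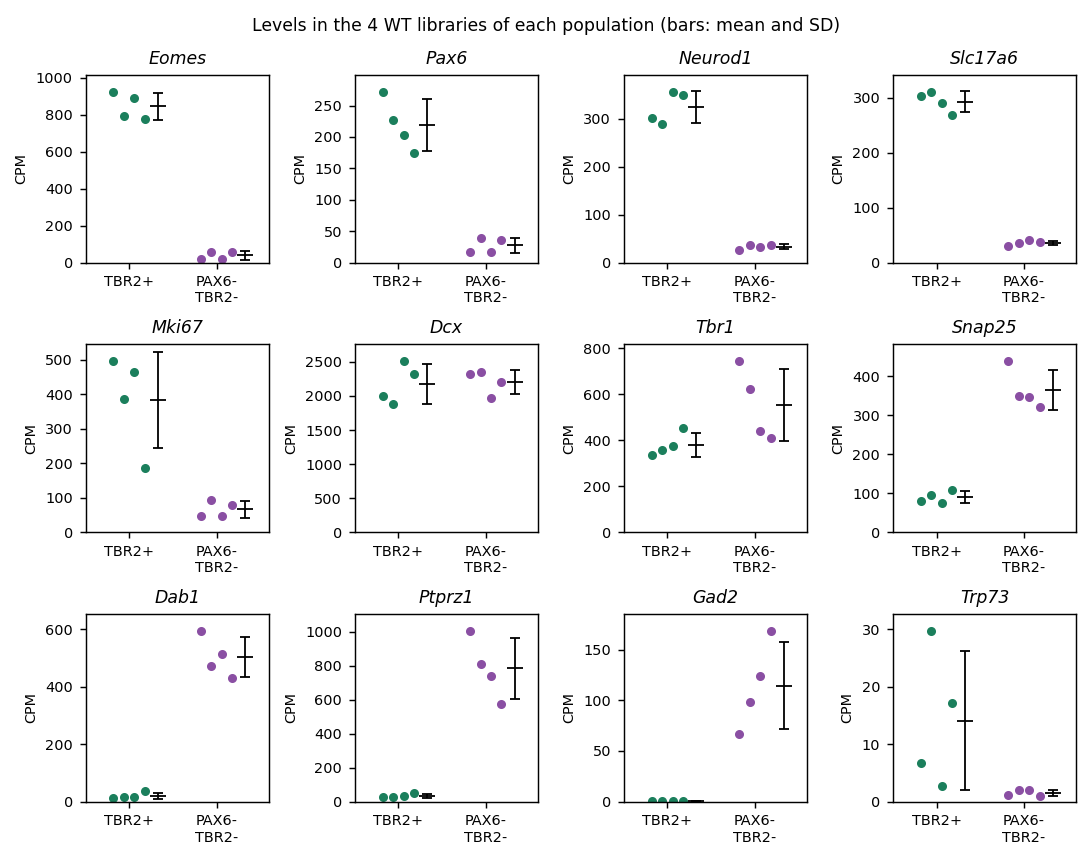
Level of 12 genes in each WT library, in CPM on a linear axis from 0, with TBR2+ libraries left (green) and PAX6-TBR2- libraries right (purple); points run from replicate 1 to 4, and bars give the mean and SD of 4 libraries. The groups overlap for Dcx and Tbr1, and Trp73 spreads from 2.66 to 29.7 CPM within TBR2+.

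The comparison asks what separates the TBR2+ cells from the cells negative for both markers. Of 12868 genes tested with edgeR's quasi-likelihood test and Benjamini-Hochberg adjustment, 6309 (49.0%) passed an adjusted p of 0.05, 3016 (23.4%) higher in TBR2+ and 3293 (25.6%) lower. At least 2-fold apart were 1177 (9.15%) higher and 1663 (12.9%) lower. The libraries of the 2 groups did not overlap at all for 2717 genes (21.1%) higher in TBR2+ and 3060 (23.8%) lower. The median log2 fold change over all genes tested was 0.01. With a trend on exon length and GC content removed from each library, the called genes split into 3967 higher and 2844 lower. The share higher was 58.2% in place of 47.8%, and the median log2 fold change over all genes tested was 0.098. A member's call below is read against these shares, and adjusted p-values come from the edgeR test unless another tool is named.

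**Figure D2:**
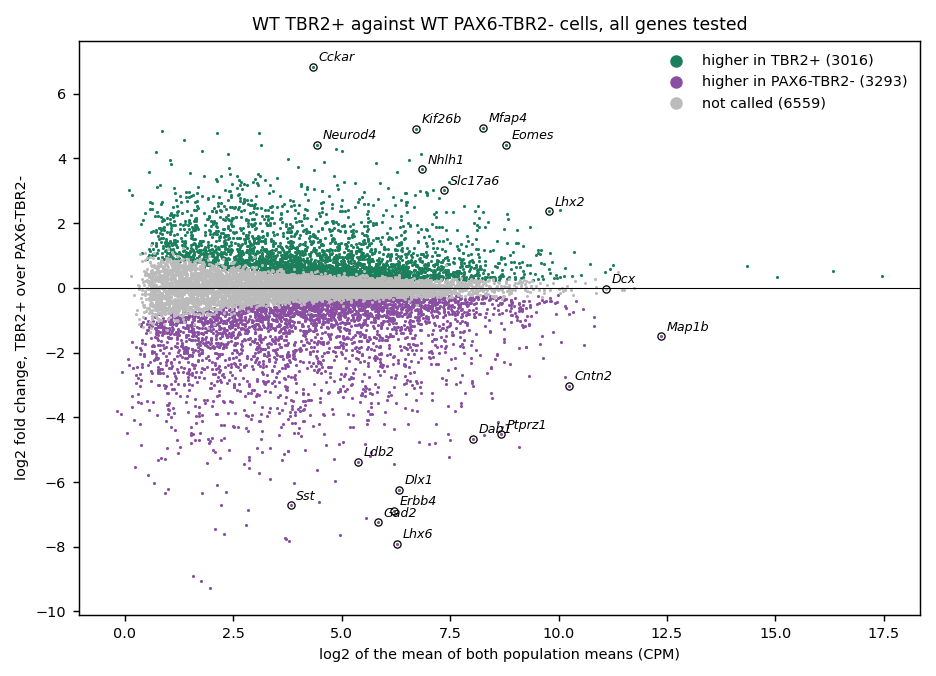
Log2 fold change, TBR2+ over PAX6-TBR2-, against the log2 of the mean of both population means in CPM, for the 12868 genes tested; green genes were called higher in TBR2+ (3016), purple genes higher in PAX6-TBR2- (3293), grey genes neither. Circled genes are named in the text, with Cckar at the top and Lhx6 among the lowest.

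The 15 genes named as most raised in TBR2+ cells included receptor, matrix, kinesin and transcription factor genes. Cckar, which encodes a cholecystokinin receptor (GRCm38 chromosome 5, 53697776 to 53707705, minus strand), had 35.2, 56.7, 29.2 and 38.8 CPM in TBR2+, against 0.38, 0.463, 0.24 and 0.33 CPM in PAX6-TBR2-. Every TBR2+ library stood far above every PAX6-TBR2- library, a log2 fold change of 6.83 (SE 0.30, adjusted p = 3.894e-10). Scaled over the 12 WT libraries, Cckar averaged 0.573 CPM in PAX6+ radial glia, 44.6 CPM in TBR2+ and 0.393 CPM in PAX6-TBR2- cells. Kif26b, a kinesin family gene (GRCm38 chromosome 1, 178529125 to 178939200, plus strand), had 221, 209, 187 and 199 CPM in TBR2+, against 3.42, 8.18, 6.83 and 7.49 CPM in PAX6-TBR2-, and the log2 fold change was 4.91 (SE 0.17, adjusted p = 7.681e-11). Its 4 values within TBR2+ lay close together, at 204 ± 14.4 CPM (SD, n = 4), against 6.48 ± 2.11 CPM in PAX6-TBR2-. Mfap4, which encodes an extracellular matrix glycoprotein, had 659.9, 602, 549.8 and 562 CPM in TBR2+, against 13.1, 25.6, 15 and 22 CPM in PAX6-TBR2- (log2 fold change 4.95, SE 0.18).

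Also among these 15 genes, the laminin chain gene Lama2 averaged 16.7 ± 4.43 CPM in TBR2+, against 0.473 ± 0.363 CPM in PAX6-TBR2-, and Lama5 averaged 45.3 ± 2.69 CPM in TBR2+, against 2.91 ± 0.861 CPM in PAX6-TBR2- (SD, n = 4 each). Laminins are building blocks of basement membranes. Cxcl12, a chemokine that guides migrating cells in the cortex, had 35.4, 36.2, 41.5 and 37.9 CPM in TBR2+, against 3.61, 4.01, 3.11 and 2.21 CPM in PAX6-TBR2-, and in radial glia it averaged 0.754 CPM on the 12-library scale. Kif19a, another kinesin gene, was higher by 3.72 (SE 0.33), and Synpr, which encodes the synaptic vesicle protein synaptoporin, by 4.4 (SE 0.30). Zic1, a zinc finger factor, varied within TBR2+, with 99, 56, 26.8 and 60.8 CPM, against 5.51, 5.1, 2.16 and 2.15 CPM in PAX6-TBR2-. The lowest TBR2+ library still lay above every PAX6-TBR2- library (log2 fold change 4.22, SE 0.39).

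All 18 genes of the intermediate progenitor list were tested and all 18 were higher in TBR2+, 17 of them at least 2-fold, with a median log2 fold change of 2.67. The list holds Eomes, which the sort used. Summed over the list, levels were 3182 to 3687 CPM in TBR2+, against 364 to 562 CPM in PAX6-TBR2-. Sstr2, a somatostatin receptor gene, had 184, 203, 185 and 223 CPM in TBR2+, against 18, 26.1, 18.8 and 33.7 CPM in PAX6-TBR2- (log2 fold change 3.0, SE 0.17, adjusted p = 3.772e-09). On the 12-library scale all 18 genes had their highest mean in TBR2+, ahead of both PAX6+ and PAX6-TBR2-, whereas 26.3% of all 14236 genes with a level did so.

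Among 19 tested bHLH, Id and Myt1 factors, which time the exit from the progenitor state, 12 were higher and 3 lower, with a median log2 fold change of 0.80. Neurod1, a bHLH activator of neuronal differentiation (GRCm38 chromosome 2, 79452521 to 79456751, minus strand), had 301, 288, 356 and 349 CPM in TBR2+, against 27, 37.7, 32 and 37 CPM in PAX6-TBR2-. The groups lay far apart, at a log2 fold change of 3.27 (SE 0.13, adjusted p = 1.775e-10), and the PAX6+ mean was 1.43 CPM. Neurog2, the proneural factor of the dorsal cortex, had 309, 228, 295 and 232 CPM in TBR2+, against 23.9, 45.4, 26.9 and 54.9 CPM in PAX6-TBR2-, and averaged 116 CPM in PAX6+. Neurod4 was higher by 4.43 (SE 0.40), Nhlh1 by 3.67 (SE 0.19) and Nhlh2 by 3.86 (SE 0.18). Nhlh2 is also a member of the Cajal-Retzius list read below, and one of its genes called higher in TBR2+. These factors did not all move the same way. Neurod2 had 854, 885, 982 and 1243 CPM in TBR2+, against 898, 767, 1047 and 853 CPM in PAX6-TBR2-, and Neurod6 had 901, 922, 1168 and 1092 CPM in TBR2+, against 1107, 1021, 1125 and 898 CPM in PAX6-TBR2-. Both ranges overlapped and neither gene passed (adjusted p = 0.3534 and 0.8814), while PAX6+ cells averaged 12.9 CPM of Neurod2 and 7.86 CPM of Neurod6. The zinc finger pair Myt1 and Myt1l, which repress progenitor or non-neuronal genes, went opposite ways. Myt1 had 485, 506, 441 and 459 CPM in TBR2+, against 101, 109, 108 and 102 CPM in PAX6-TBR2- (log2 fold change 2.17, SE 0.09), and Myt1l had 105, 156, 131 and 182 CPM in TBR2+, against 633, 585, 866 and 747 CPM in PAX6-TBR2- (log2 fold change -2.31, SE 0.16). Id2, an inhibitor of bHLH factors, was also lower in TBR2+ (-0.95, SE 0.12).

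Cell division genes moved together. All 25 genes of the G2/M and mitosis list were tested and all 25 were higher in TBR2+, each at least 2-fold and with no overlap between the groups (median log2 fold change 2.42). Mki67, a protein of proliferating nuclei, had 496, 388, 464 and 185 CPM in TBR2+, against 45.8, 92.6, 46.2 and 79.3 CPM in PAX6-TBR2- (log2 fold change 2.53, SE 0.28, adjusted p = 2.512e-06). TBR2+ replicate 4 had the lowest Mki67 of its group, and for the whole list the sum was 1608, 1234, 1426 and 660.4 CPM in TBR2+ replicates 1 to 4, against 181, 272, 162 and 266 CPM in PAX6-TBR2- replicates 1 to 4. Ube2c, the ubiquitin-conjugating enzyme of the anaphase-promoting complex, had 46.1, 33.9, 43.7 and 24 CPM in TBR2+, against 5.13, 3.55, 2.63 and 5.55 CPM in PAX6-TBR2- (log2 fold change 3.07, SE 0.25). Birc5, the survivin gene of the chromosomal passenger complex, was higher by 3.19 (SE 0.28), the spindle pole gene Aspm by 2.58 (SE 0.23), the spindle motor Kif11 by 2.7 (SE 0.27) and the cytokinesis motor Kif23 by 2.58 (SE 0.26). All 25 had their highest mean in PAX6+ cells. Mki67 averaged 2115 CPM there, 427 CPM in TBR2+ and 73.4 CPM in PAX6-TBR2-.

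Genes of mitosis are known to be controlled through CCAAT boxes together with a cell cycle homology region (CHR), a short element bound by the DREAM and MMB complexes. Promoter windows of 300 bases, 250 before to 50 after the annotated start, were available from RefSeq (GRCm38.p6) for 21 of the 25 list genes. They were searched on both strands for CCAAT and for TTTGAA or TTCGAA. Matches of CCAAT on the 2 strands can overlap (CCAATTGG). A CCAAT box was present in 19 of the 21 windows and a CHR in 17, and 17 (81.0%) held both. Over all 27025 windows, 37.9% held CCAAT, 19.4% a CHR and 7.70% both. In the G1/S and DNA replication list, 13 of 20 windows held CCAAT, 3 a CHR and 3 both. The windows of Ube2c, Aspm, Kif11 and Kif23, described above, were chosen for printing because they hold both elements. Birc5, described with them, held neither in its window. Capitals mark CCAAT and CHR, which read ATTGG and TTCAAA where they lie on the other strand.
Ube2c (chr2:164769679-164769978, plus strand): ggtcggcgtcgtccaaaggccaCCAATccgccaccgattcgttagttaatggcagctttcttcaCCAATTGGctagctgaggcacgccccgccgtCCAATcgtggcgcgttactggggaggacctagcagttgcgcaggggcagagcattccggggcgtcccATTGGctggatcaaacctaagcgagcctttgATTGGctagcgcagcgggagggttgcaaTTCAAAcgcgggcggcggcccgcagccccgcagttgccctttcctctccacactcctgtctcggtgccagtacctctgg
Aspm (chr1:139454523-139454822, plus strand): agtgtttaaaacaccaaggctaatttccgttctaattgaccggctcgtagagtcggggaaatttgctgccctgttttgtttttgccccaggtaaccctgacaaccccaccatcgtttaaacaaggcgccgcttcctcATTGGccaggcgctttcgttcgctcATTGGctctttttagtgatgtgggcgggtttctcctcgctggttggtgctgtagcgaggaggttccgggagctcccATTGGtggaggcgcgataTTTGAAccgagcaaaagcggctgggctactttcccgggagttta
Kif11 (chr19:37376132-37376431, plus strand): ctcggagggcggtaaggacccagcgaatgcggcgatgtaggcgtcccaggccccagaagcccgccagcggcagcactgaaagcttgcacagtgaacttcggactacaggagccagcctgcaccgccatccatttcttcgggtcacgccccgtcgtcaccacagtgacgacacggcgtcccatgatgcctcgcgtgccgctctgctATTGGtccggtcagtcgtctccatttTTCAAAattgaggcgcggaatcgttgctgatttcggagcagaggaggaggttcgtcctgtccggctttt
Kif23 (chr9:61946750-61947049, minus strand): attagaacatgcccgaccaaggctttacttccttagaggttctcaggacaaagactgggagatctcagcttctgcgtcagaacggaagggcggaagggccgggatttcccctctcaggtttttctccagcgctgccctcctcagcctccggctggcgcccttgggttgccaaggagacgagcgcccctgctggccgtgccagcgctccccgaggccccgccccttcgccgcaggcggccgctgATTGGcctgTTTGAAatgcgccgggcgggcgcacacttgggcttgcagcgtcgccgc
In these 4 windows a CHR follows the last CCAAT box in the direction of reading. In Ube2c and Kif11 it lies before the annotated start, and in Aspm and Kif23 within the 50 bases after it. A match is a description of letters and shows no binding.

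The G1/S and DNA replication list moved less evenly. Of 25 genes, 18 were higher, 0 lower and 7 did not pass, with a median log2 fold change of 1.06. The cyclin gene Ccnd2 had 459, 410.3, 525 and 422 CPM in TBR2+, against 69.5, 101, 72.2 and 107 CPM in PAX6-TBR2- (log2 fold change 2.37, SE 0.15), and its partner kinase gene Cdk6 had 142, 111, 198 and 119 CPM in TBR2+, against 4.18, 16.2, 7.31 and 16.8 CPM in PAX6-TBR2- (3.59, SE 0.30). Cdk4 was higher by 1.08 (SE 0.12) and the S phase regulator E2f1 by 1.59 (SE 0.20). Replication factors split. The helicase subunit gene Mcm2 was higher by 1.54 (SE 0.22), whereas Mcm4 (0.37, adjusted p = 0.1263), the polymerase subunit Pola1 (-0.39, adjusted p = 0.0952) and the primase subunit Prim1 (-0.01, adjusted p = 0.9658) did not pass. On the 12-library scale Pola1 averaged 90.5 CPM in PAX6+, 17 CPM in TBR2+ and 22 CPM in PAX6-TBR2-, and 24 of the 25 genes had their highest mean in PAX6+. The remaining one was Cdk4, at 229.6 CPM in PAX6+, 336 CPM in TBR2+ and 158 CPM in PAX6-TBR2-.

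Inhibitors of the cycle were also higher in TBR2+, 6 of 11 against 1 lower (median log2 fold change 1.00). Cdkn1c, which encodes the p57 inhibitor, had 73, 81, 48 and 85.7 CPM in TBR2+, against 30.2, 31.2, 25.1 and 36.8 CPM in PAX6-TBR2- (log2 fold change 1.21, SE 0.17), and averaged 2.25 CPM in PAX6+. Cdkn1b, the p27 gene, had 182, 171, 246 and 189 CPM in TBR2+, against 88.7, 91.6, 100.5 and 106 CPM in PAX6-TBR2- (1.02, SE 0.12). Ccng2, an atypical cyclin linked to cell cycle arrest, was higher by 1.14 (SE 0.10), and the retinoblastoma relative Rbl2 was lower (-0.53, SE 0.11). Bulk libraries do not show whether single cells carried both division and arrest genes.

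Notch signalling keeps progenitors undifferentiated through contact with ligand-bearing neighbours. Of 21 tested genes of the pathway, 14 were higher in TBR2+ and 5 lower, with a median log2 fold change of 0.95. Mfng, a Fringe glycosyltransferase that modifies Notch receptors, had 195, 179, 168 and 164 CPM in TBR2+, against 7.41, 14.1, 7.66 and 14.7 CPM in PAX6-TBR2- (log2 fold change 3.95, SE 0.19). Nrarp, a feedback inhibitor induced by Notch, had 42, 33.9, 49.7 and 42.9 CPM in TBR2+, against 3.04, 6.18, 4.43 and 6.27 CPM in PAX6-TBR2- (3.0, SE 0.19). The transcriptional partner Rbpj was higher by 1.06 (SE 0.12), the target Hey1 by 1.36 (SE 0.13) and Hes6, which opposes Hes1, by 1.59 (SE 0.14). The classical effectors did not share 1 direction. Hes5 was at 7.2, 8.17, 7.48 and 4.59 CPM in TBR2+, against 1.33, 2.32, 1.68 and 3.14 CPM in PAX6-TBR2- (1.57, SE 0.29), while Hes1 was at 1.8, 0.743, 1.33 and 0.444 CPM in TBR2+, against 2.09, 4.94, 3.11 and 3.86 CPM in PAX6-TBR2- (-1.7, SE 0.40). Both were low in both groups beside radial glia, where Hes5 averaged 55.3 CPM and Hes1 52.3 CPM. The ligand genes Jag1 (-1.1, SE 0.24) and Jag2 (-2.23, SE 0.32) and the receptor gene Notch2 (-0.58, SE 0.16) were lower in TBR2+, and Notch2 was not called with length and GC trends removed (-0.19).

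Radial glial markers were mixed. Of 19 tested, 7 were higher in TBR2+, 5 lower and 7 did not pass (median log2 fold change 0.34), while all 20 genes of the list had their highest mean in PAX6+. The list holds Pax6, which the sort used and which is among the 7 called higher. Prom1, a protein of apical membrane protrusions, was higher by 1.97 (SE 0.14), the transcription factor Sox9 by 1.37 (SE 0.20) and Gli3, a hedgehog pathway factor, by 1.52 (SE 0.22). Nes, the nestin intermediate filament gene, had 55.2, 47.1, 41.7 and 36.3 CPM in TBR2+, against 35.3, 58.8, 42.5 and 45.1 CPM in PAX6-TBR2- and did not pass (adjusted p = 0.9579). Ptprz1, a receptor phosphatase of radial glia (GRCm38 chromosome 6, 22875502 to 23052916, plus strand), had 24.9, 25.4, 34.2 and 52.7 CPM in TBR2+, against 1008, 813, 743 and 577 CPM in PAX6-TBR2-. Every TBR2+ library was below every PAX6-TBR2- library, with a log2 fold change of -4.52 (SE 0.24, adjusted p = 1.773e-09), and the PAX6+ mean of 951 CPM was close to the PAX6-TBR2- mean of 873 CPM on the same scale. The matrix gene Tnc (-1.48, SE 0.25), the endothelin receptor gene Ednrb (-1.23, SE 0.39) and the glutamate transporter gene Slc1a3 (-0.51, SE 0.16) were lower in TBR2+ as well. The call for Ednrb was lost without PAX6-TBR2- replicate 4, and that for Slc1a3 without TBR2+ replicate 2 or 4 and with length and GC trends removed.

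Several genes of other groups also had their lowest mean in TBR2+ and higher ones on both sides. Growth factor receptors were tested as 1 list: of 14 genes, 2 were higher, 8 lower and 4 did not pass (median log2 fold change -0.57). Fgfr2, a fibroblast growth factor receptor gene, had 16.9, 16.9, 18.3 and 14.1 CPM in TBR2+, against 101, 94.5, 106 and 92.8 CPM in PAX6-TBR2- (log2 fold change -2.57, SE 0.12), and averaged 227 CPM in PAX6+. Ntrk2, the receptor of brain-derived neurotrophic factor, had 12.2, 23, 19.4 and 24.3 CPM in TBR2+, against 158, 138, 169 and 154 CPM in PAX6-TBR2- (-2.97, SE 0.17), and averaged 77 CPM in PAX6+. The BMP receptor gene Bmpr1b was lower by 3.3 on the log2 scale and the cytokine receptor gene Lifr by 2.28, whereas the related receptor genes Bmpr1a (0.80, SE 0.14) and Fgfr3 (0.71, SE 0.13) were higher in TBR2+. Rest, a repressor of neuronal genes, had 13.3, 14.1, 9.14 and 9.77 CPM in TBR2+, against 27.7, 25.8, 31.9 and 31.4 CPM in PAX6-TBR2- (-1.34, SE 0.16), and 135 CPM on average in PAX6+. No test was made of these 3-population patterns.

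**Figure D3:**
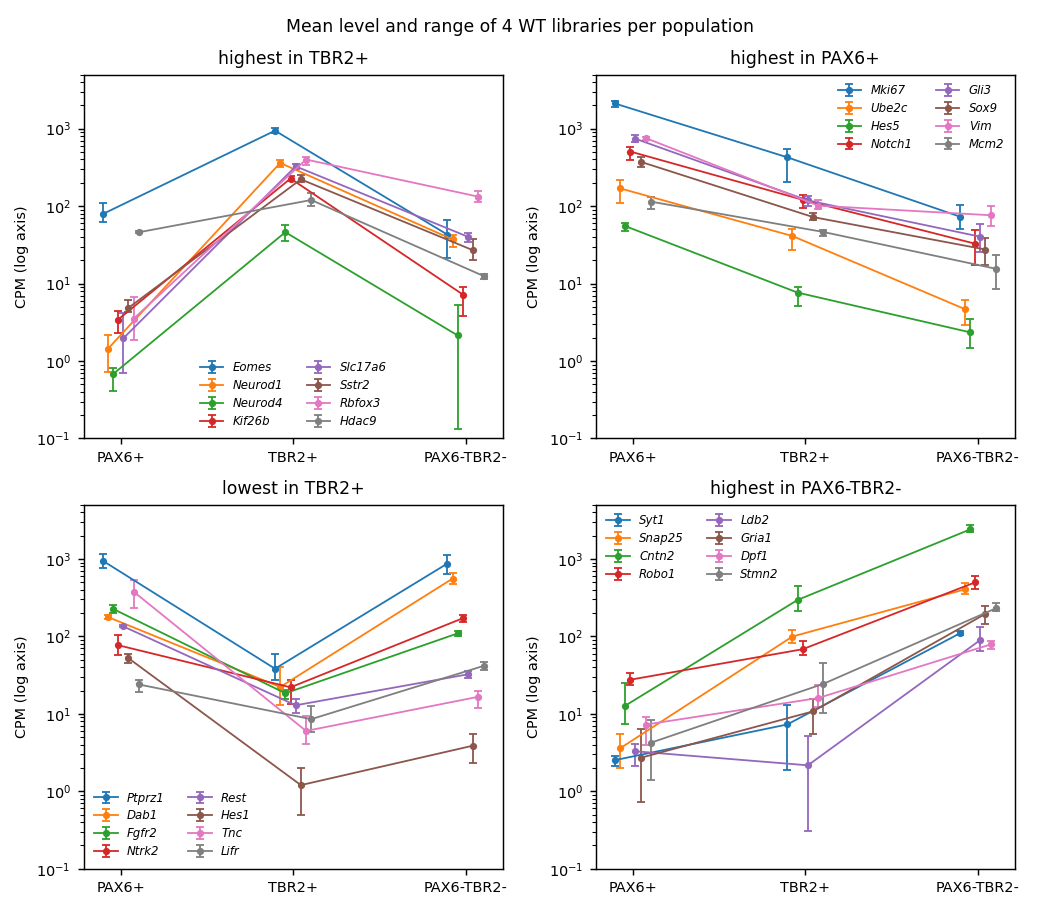
Mean CPM (points, log axis) and range (bars) of 4 WT libraries in PAX6+, TBR2+ and PAX6-TBR2- cells, scaled over 12 WT libraries, for 32 genes in 4 panels drawn by where the mean is highest or lowest. Ptprz1, Dab1, Fgfr2 and Ntrk2 dip in TBR2+, and Eomes, Neurod1, Kif26b and Slc17a6 peak there.

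Apical polarity and junction genes, which hold radial glia to the ventricular surface, were higher for 6 of 14 tested and lower for 3 (median log2 fold change 0.25). The cadherin Celsr1 had 491, 511, 487 and 443 CPM in TBR2+, against 56.8, 87.9, 74.1 and 115 CPM in PAX6-TBR2- (log2 fold change 2.52, SE 0.17). Pard3, a scaffold of the apical complex, was higher by 1.92 (SE 0.16). The 2 alpha-catenin genes, which link cadherins to actin, went opposite ways, with Ctnna1 at 127 ± 9.39 CPM in TBR2+, against 34.4 ± 6.91 CPM in PAX6-TBR2-, and the neural form Ctnna2 at 88.2 ± 10.8 CPM in TBR2+, against 249 ± 42.6 CPM in PAX6-TBR2- (SD, n = 4 each).

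Neuronal genes had reads in the TBR2+ libraries too, and most of these genes were higher in PAX6-TBR2-. Bulk libraries do not show which cells of the TBR2+ gate carried them. Of 20 pan-neuronal genes tested, 2 were higher in TBR2+, 16 lower and 2 did not pass (median log2 fold change -1.94). Dcx, the microtubule protein doublecortin of migrating neurons, had 1998, 1879, 2511 and 2328 CPM in TBR2+, against 2319, 2356, 1966 and 2202 CPM in PAX6-TBR2-. The groups overlapped and the gene did not pass (-0.02, SE 0.11, adjusted p = 0.8937), and the tubulin gene Tubb3 did not pass either (adjusted p = 0.1009). Tubb3 was called lower without TBR2+ replicate 4 (-0.35, adjusted p = 0.0208), on library totals without TMM (-0.33) and with length and GC trends removed (-0.34). PAX6+ means were 58 CPM for Dcx and 8.65 CPM for Tubb3. Snap25, a core protein of vesicle fusion, had 80.4, 94.3, 74.1 and 108 CPM in TBR2+, against 439, 349, 347 and 321 CPM in PAX6-TBR2- (log2 fold change -2.02, SE 0.13). The calcium sensor of release Syt1 had 3.88, 8.91, 1.66 and 11.7 CPM in TBR2+, against 93.7, 96.8, 105 and 97.3 CPM in PAX6-TBR2- (-3.89, SE 0.31), with replicates 2 and 4 the higher TBR2+ libraries. The 2 genes that went the other way encode RNA-binding proteins. Elavl4 had 421, 438, 477 and 422 CPM in TBR2+, against 107, 107, 114 and 129 CPM in PAX6-TBR2- (1.94, SE 0.10), and Rbfox3, the gene of the neuronal antigen NeuN, had 384, 392, 304 and 355 CPM in TBR2+, against 110.2, 103, 139 and 125 CPM in PAX6-TBR2- (1.59, SE 0.12, adjusted p = 3.754e-08). Rbfox3 averaged 3.52 CPM in PAX6+.

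Cytoskeletal genes of the axon and dendrite followed the pan-neuronal list. Among 26 microtubule and neurofilament genes, 2 were higher in TBR2+, 20 lower and 4 did not pass (median log2 fold change -0.86). Map1b, a microtubule-associated protein of growing axons, had 2434, 2928, 2355 and 3366 CPM in TBR2+, against 8457, 7779.6, 8102 and 6918 CPM in PAX6-TBR2- (log2 fold change -1.5, SE 0.13). Stmn2, a tubulin-binding protein of growth cones, had 9.14, 23.8, 13.6 and 41 CPM in TBR2+, against 246, 195, 195 and 192 CPM in PAX6-TBR2- (-3.24, SE 0.31). The neurofilament genes Ina (-3.04, SE 0.29) and Nefm (-2.77, SE 0.25) were lower in TBR2+ too. Dpysl4, a collapsin response mediator gene, was higher in TBR2+ (0.74, SE 0.16). Stmn1 was the other gene called higher, at 0.27, and its call was lost under 11 of the 22 alternatives, among them without TBR2+ replicate 3 or 4 and without PAX6-TBR2- replicate 1 or 4.

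Synaptic and channel genes were mostly lower in TBR2+. Of 22 genes of synaptic vesicles and release, 4 were higher in TBR2+ and 18 lower (median log2 fold change -1.17). Cplx1, a complexin of the release machinery, had 1.8, 1.04, 2.49 and 3.26 CPM in TBR2+, against 38.6, 30.1, 27.3 and 26.3 CPM in PAX6-TBR2- (log2 fold change -3.82, SE 0.25). The active zone gene Rims1 was lower in TBR2+ by 2.55 and the synaptotagmin gene Syt4 by 1.82 on the log2 scale. Slc17a6, which encodes the vesicular glutamate transporter VGLUT2 (GRCm38 chromosome 7, 51622006 to 51671119, plus strand), had 302, 311, 289.5 and 268 CPM in TBR2+, against 30.8, 36.4, 40.4 and 36.8 CPM in PAX6-TBR2-. The groups were widely separated in the direction opposite to the list (3.01, SE 0.11, adjusted p = 7.681e-11), and PAX6+ cells averaged 1.96 CPM. The other genes higher in TBR2+ were Syn2 (1.56, SE 0.13), Cplx2 (0.74, SE 0.10) and Syt11 (0.26, SE 0.10), the last lost under 9 of the 22 alternatives.

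Of 27 ion channel and transmitter receptor genes, 2 were higher in TBR2+, 23 lower and 2 did not pass, 20 of the lower ones at least 2-fold (median log2 fold change -2.18). Gria1 had 4.98, 10.1, 9.64 and 13.9 CPM in TBR2+, against 128, 136, 219 and 220.2 CPM in PAX6-TBR2- (log2 fold change -4.2, SE 0.26), and Gria4 had 5.12, 4.6, 4.15 and 5.33 CPM in TBR2+, against 57.4, 62.5, 80.1 and 89.6 CPM in PAX6-TBR2- (-3.92, SE 0.18). Kcnq3, a subunit of the potassium channel that carries the M current, had 34.1, 52.1, 77.3 and 79.5 CPM in TBR2+, against 778, 793, 521 and 502 CPM in PAX6-TBR2- (-3.42, SE 0.24). Kcnq3 was highest in PAX6-TBR2- replicates 1 and 2, whereas Gria1 was highest in replicates 3 and 4. The calcium channel gene Cacna1b was lower in TBR2+ by 2.88. Against the trend, the kainate receptor gene Grik2 (1.24, SE 0.12) and the calcium channel subunit gene Cacna2d1 (0.87, SE 0.09) were higher in TBR2+, and in PAX6+ they averaged 243 CPM and 20.3 CPM.

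**Figure D4:**
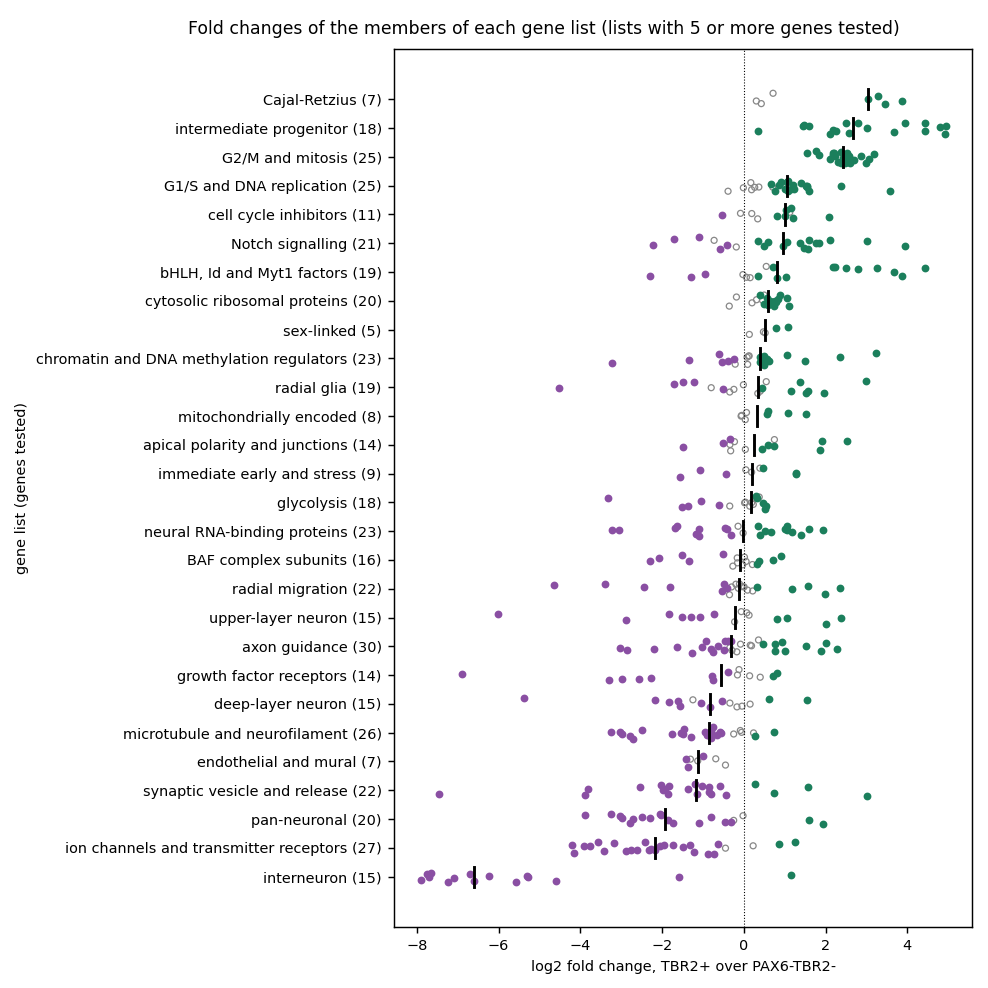
Log2 fold change, TBR2+ over PAX6-TBR2-, of the tested members of 28 gene lists with 5 or more genes tested, ordered by median; green points were called higher in TBR2+, purple points lower, open circles neither, and black bars are medians. The dotted line is the median of all genes tested (0.01), and members of the G2/M list all lie right of it.

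Layer identity genes were read in 2 lists, of deep and of upper layers. Of 15 deep-layer genes, 2 were higher in TBR2+, 8 lower and 5 did not pass (median log2 fold change -0.82). Ldb2, a LIM domain cofactor of deep-layer neurons, had 0.277, 0.891, 1.99 and 4.59 CPM in TBR2+, against 119, 76, 69.7 and 58.2 CPM in PAX6-TBR2- (log2 fold change -5.38, SE 0.40). Sox5, a regulator of corticofugal neuron timing, had 259, 319, 278 and 303 CPM in TBR2+, against 1637, 1533, 1038 and 1007 CPM in PAX6-TBR2- (-2.17, SE 0.16), and Bcl11b, the CTIP2 gene of subcerebral neurons, had 171, 242, 170.0 and 281 CPM in TBR2+, against 784, 694, 565 and 516 CPM in PAX6-TBR2- (-1.57, SE 0.17). For Ldb2, Sox5 and Bcl11b alike, PAX6-TBR2- replicates 1 and 2 were above replicates 3 and 4. Tbr1, a T-box factor of early neurons and a relative of TBR2, had 335, 356, 375 and 451 CPM in TBR2+, against 743, 620.4, 440.5 and 410.1 CPM in PAX6-TBR2-, and the groups overlapped. It was called lower (-0.54, SE 0.17, adjusted p = 0.01301) and the call was lost without PAX6-TBR2- replicate 1 (adjusted p = 0.05198), under the replicate block (0.05029), with all 24 libraries in 1 fit (0.09846) and with length and GC trends removed (-0.37, adjusted p = 0.0788). Foxp2, a forkhead factor of layer 6, was higher in TBR2+, with 158, 126, 128 and 108 CPM, against 59.8, 51.6, 38.2 and 31.8 CPM in PAX6-TBR2- (1.54, SE 0.18).

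Upper-layer genes were split, with 4 of 15 higher in TBR2+, 7 lower and 4 not passing (median log2 fold change -0.23). Lhx2, a LIM homeobox factor that is also used by progenitors, had 1404, 1279, 1581 and 1648 CPM in TBR2+, against 214, 278, 317 and 334 CPM in PAX6-TBR2- (log2 fold change 2.37, SE 0.14, adjusted p = 4.696e-09). Unc5d, a netrin receptor gene of the subventricular zone, had 375, 372, 483 and 472 CPM in TBR2+, against 92.7, 121, 98 and 112 CPM in PAX6-TBR2- (2.01, SE 0.12). The POU factors Pou3f2 (1.06, SE 0.21) and Pou3f3 (0.81, SE 0.16) were the other 2 higher in TBR2+. Cux2, a homeobox factor of upper layers, had 77.5, 77.8, 94.1 and 79.3 CPM in TBR2+, against 137, 139, 328 and 324 CPM in PAX6-TBR2- (-1.51, SE 0.25). For Cux2, PAX6-TBR2- replicates 3 and 4 were above replicates 1 and 2, the reverse of the deep-layer genes named above. Summed over the lists, deep-layer genes ran from 2838 to 4582 CPM and upper-layer genes from 2118 to 3516 CPM within PAX6-TBR2-.

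Genes of radial migration and of the reelin pathway were called in both directions, 5 higher in TBR2+, 7 lower and 10 not passing of 22 (median log2 fold change -0.12). As a list they were near all genes tested, of which 23.4% were higher and 25.6% lower. Dab1, the intracellular adaptor of reelin signalling (GRCm38 chromosome 4, 103619359 to 104744844, plus strand), had 11.8, 16, 16.1 and 35.7 CPM in TBR2+, against 594, 473, 512 and 429 CPM in PAX6-TBR2-. Every TBR2+ library lay far below (log2 fold change -4.66, SE 0.26, adjusted p = 3.362e-09), and PAX6+ cells averaged 178 CPM. The 2 reelin receptor genes of the list moved apart. Vldlr had 4.02, 5.94, 6.65 and 9.47 CPM in TBR2+, against 86.1, 72, 62.2 and 58 CPM in PAX6-TBR2- (-3.41, SE 0.21), while Lrp8, the gene of ApoER2, had 1094, 1033, 999 and 983 CPM in TBR2+, against 420.0, 435, 492 and 468 CPM in PAX6-TBR2- (1.18, SE 0.09). The small GTPase genes Rnd2 and Rnd3, known to act at successive steps of migration, were both higher in TBR2+. Rnd3 was higher by 2.34 (SE 0.15) and Rnd2 by 1.56 (SE 0.21), with PAX6+ means of 101 CPM and 7.68 CPM. The doublecortin-like kinase gene Dclk1 was lower in TBR2+ by 2.44, unlike Dcx.

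Among 30 axon guidance genes, 9 were higher in TBR2+, 14 lower and 7 did not pass (median log2 fold change -0.30). Cntn2, the cell adhesion molecule TAG-1 of early axons, had 189, 265, 204 and 401 CPM in TBR2+, against 2088, 2019.6, 2455 and 2083 CPM in PAX6-TBR2- (log2 fold change -3.03, SE 0.20). The slit receptor genes were unlike each other. Robo1 had 51.9, 52, 62.5 and 78.7 CPM in TBR2+, against 547, 408, 473 and 367 CPM in PAX6-TBR2- (-2.87, SE 0.16), and Robo2 had 622, 633, 585 and 559 CPM in TBR2+, against 509, 542, 786 and 702 CPM in PAX6-TBR2-, overlapping and not passing (adjusted p = 0.6239). Their ligand genes were opposed, with Slit1 lower in TBR2+ (-2.21, SE 0.21) and Slit2 higher (1.52, SE 0.17). The ephrin receptor gene Epha4 had 755, 755, 717 and 755 CPM in TBR2+, against 155, 183, 129 and 144 CPM in PAX6-TBR2- (2.29, SE 0.11), and the semaphorin receptor gene Nrp2 was higher by 1.88 (SE 0.14).

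Regulators of RNA and chromatin had members called in each direction. Of 23 neural RNA-binding protein genes, 11 were higher in TBR2+ and 10 lower (median log2 fold change -0.02). Besides Elavl4 and Rbfox3, the higher genes included the progenitor proteins Msi1 (1.05, SE 0.10) and Msi2 (1.17, SE 0.10) and the Hu family gene Elavl2 (1.39, SE 0.10). On the other side, the splicing factor gene Rbfox1 had 12.7, 19.2, 31.2 and 32.7 CPM in TBR2+, against 237, 204, 189.9 and 168 CPM in PAX6-TBR2- (-3.06, SE 0.23), opposite to its paralogue Rbfox3. Khdrbs2, another splicing factor gene, was lower in TBR2+ by 3.22, Nova2 by 1.1 and Celf2 by 1.18 on the log2 scale.

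The BAF chromatin remodelling complex is known to exchange subunits when neurons form. Of 16 subunit genes, 4 were higher in TBR2+, 5 lower and 7 did not pass (median log2 fold change -0.09). These counts lay near the shares over all genes tested (23.4% higher, 25.6% lower), so the list as a whole did not stand out. The neuronal subunit gene Dpf1 had 11.2, 12.2, 13 and 21 CPM in TBR2+, against 73.3, 61.1, 79.3 and 69.5 CPM in PAX6-TBR2- (log2 fold change -2.3, SE 0.17), and Actl6b had 11.4, 14.7, 15.3 and 19.7 CPM in TBR2+, against 47.3, 30.1, 53.8 and 42.7 CPM in PAX6-TBR2- (-1.51, SE 0.19). Ss18l1, another neuronal subunit gene, was lower by 0.50, and its progenitor counterpart Ss18 was higher (0.91, SE 0.14). The other progenitor counterparts, Actl6a (0.21, adjusted p = 0.2373) and Phf10 (-0.27, adjusted p = 0.1448), did not pass. Smarca2, one of the 2 ATPase genes, was lower in TBR2+ (-1.34, SE 0.17), and Smarca4, the other, did not pass (adjusted p = 0.2143). With length and GC trends removed, 7 subunit genes in place of 4 were higher.

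Among 23 chromatin and DNA methylation regulators, 12 were higher in TBR2+ and 6 lower (median log2 fold change 0.38). Hdac9, a class IIa histone deacetylase gene, had 90.8, 109, 133 and 97.4 CPM in TBR2+, against 11.4, 11.1, 10.4 and 12.1 CPM in PAX6-TBR2- (log2 fold change 3.24, SE 0.14, adjusted p = 3.894e-10). The remodeller genes Chd7 and Chd5 were opposed, Chd7 higher by 2.36 (SE 0.20) and Chd5 lower by 3.24 on the log2 scale. The corepressor gene Rcor2 was higher by 1.5 (SE 0.09), while its paralogue Rcor1 did not pass (adjusted p = 0.2865). With length and GC trends removed, Rcor1 was called higher (0.28, adjusted p = 0.01358), and 2 genes of this list in place of 6 were lower.

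Most of the 15 genes named as most reduced in TBR2+ are known from GABAergic interneurons, a lineage that does not arise from TBR2+ progenitors. Of 15 tested genes of the interneuron list, 14 were lower in TBR2+ and 1, Sp8, was higher (1.15, SE 0.29), with a median log2 fold change of -6.61. Lhx6, a LIM homeobox factor of interneurons from the medial ganglionic eminence (GRCm38 chromosome 2, 36081953 to 36105408, minus strand), had 0.554, 0.743, 0.665 and 0.592 CPM in TBR2+, against 88.7, 103, 182 and 244 CPM in PAX6-TBR2- (-7.91, SE 0.41). Gad2, which encodes a GABA-synthesizing enzyme, had 1.11, 0.446, 0.997 and 0.444 CPM in TBR2+, against 66.7, 98.4, 124 and 169 CPM in PAX6-TBR2- (-7.24, SE 0.35), and Dlx1, a homeobox factor of the lineage, had 1.52, 1.34, 2.66 and 2.96 CPM in TBR2+, against 81.3, 112, 196 and 242 CPM in PAX6-TBR2- (-6.24, SE 0.38). In all 3 genes PAX6-TBR2- replicates 3 and 4 were highest and replicate 1 lowest. Erbb4, the neuregulin receptor of migrating interneurons, had 0.554, 1.04, 1.5 and 1.92 CPM in TBR2+, against 83.6, 124, 167 and 214 CPM in PAX6-TBR2-. Nxph1, a secreted ligand of neurexins, was lower in TBR2+ by 7.1 on the log2 scale, and the neuropeptide gene Sst by 6.71. Members near 0 in TBR2+, such as Lhx6, Gad2, Nxph1 and Sst, could reach the count filter only with the PAX6-TBR2- libraries. The direction of such members was thus largely fixed by the filter, and the count of lower genes in this list is no separate result.

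Other genes of the 15 most reduced in TBR2+ also had their highest levels in PAX6-TBR2- replicates 3 and 4. Neto1, an auxiliary protein of glutamate receptors, had 0.969, 1.63, 0.166 and 0.74 CPM in TBR2+, against 39.5, 37.1, 65.6 and 82.6 CPM in PAX6-TBR2-. Inhba, an activin subunit gene of the upper-layer list, had 0.692, 0.149, 0.332 and 0.592 CPM in TBR2+, against 21.8, 17, 41.1 and 38.1 CPM in PAX6-TBR2-. For Cacng3, Dlx6, Sp9 and Cntnap5c the TBR2+ libraries held 3 reads or fewer in all, so their levels in PAX6-TBR2- are given without a fold. Dlx6, a homeobox gene of the same lineage, had 17.3, 16.5, 30.8 and 40.1 CPM in PAX6-TBR2-, and the zinc finger factor gene Sp9 had 15, 18.4, 28.4 and 40.6 CPM there. Cacng3, which encodes an auxiliary subunit of AMPA receptors, had 9.12, 6.33, 20.4 and 19.2 CPM in PAX6-TBR2-, and the contactin-associated gene Cntnap5c had 10.8, 9.88, 16 and 20.2 CPM. PAX6-TBR2- replicates 3 and 4 were above replicates 1 and 2 for each of these 4. Whether cells of this lineage carry the differences of other genes in PAX6-TBR2- was not tested.

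Marker lists of the other cell types that the gates could hold were read as sums over each library. Summed over the 16 interneuron markers, levels were 30.3 to 49.2 CPM in TBR2+, against 504 to 1359.6 CPM in PAX6-TBR2-, and Lhx8 was at 0 in all TBR2+ libraries. Of 10 Cajal-Retzius markers 7 were tested, and 4 were higher in TBR2+ and 0 lower, with sums of 316.5, 693, 228 and 458 CPM in TBR2+ replicates 1 to 4, against 162 to 201 CPM in PAX6-TBR2-. Without TBR2+ replicate 3, which had the lowest sum of its group, 8 of 9 tested markers were called higher. Trp73, a p53 family gene of these early neurons, had 6.78, 29.7, 2.66 and 17.2 CPM in TBR2+, against 1.14, 2.01, 2.04 and 1.02 CPM in PAX6-TBR2- (log2 fold change 3.28, SE 0.58), and Reln, the reelin gene, had 128, 405, 87.6 and 219 CPM in TBR2+, against 113, 143, 140.0 and 116 CPM in PAX6-TBR2- and did not pass (adjusted p = 0.08069). Reln was called higher without TBR2+ replicate 1 (0.90, adjusted p = 0.03204), without TBR2+ replicate 3 (0.97, adjusted p = 0.008377) and with length and GC trends removed (1.27, adjusted p = 0.003093). TBR2+ replicate 2 was highest for both, followed by replicate 4, and without replicate 2 the log2 fold change of Trp73 was 2.60 and that of Lhx1, another marker, 2.58 in place of 3.45. Ebf3, a further marker, had 28.9 to 43.2 CPM in TBR2+, against 3.35 to 4.48 CPM in PAX6-TBR2-. The part of Cajal-Retzius cells in the TBR2+ results was not tested.

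Of 12 endothelial and mural markers, 7 were tested and 3 were lower in TBR2+ (Pecam1, Cdh5 and Rgs5), with sums of 9.95 to 29.6 CPM in TBR2+, against 20.5 to 47.3 CPM in PAX6-TBR2-. The count of lower genes was 0 without TBR2+ replicate 2, 1 without TBR2+ replicate 4 or PAX6-TBR2- replicate 3, and 5 without PAX6-TBR2- replicate 4. Of 10 microglial markers 2 were tested and both were lower in TBR2+, with sums of 0.148 to 1.93 CPM in TBR2+, against 11.2 to 14.2 CPM in PAX6-TBR2-, and C1qa, Tyrobp and Ctss were at 0 in all TBR2+ libraries. Without TBR2+ replicate 2 or replicate 3, 4 microglial markers were tested and all 4 were lower. At these sums a marker could reach the count filter only with the PAX6-TBR2- libraries. The direction of the tested markers was thus largely fixed by the filter and is no separate result. Meningeal, choroid plexus and glial precursor markers were too low to test. Their sums were at most 4.31 CPM in TBR2+ and 4.94 CPM in PAX6-TBR2-. Of 7 erythroid markers 2 were tested and Alas2 was lower in TBR2+ (-0.45), a call lost under 7 of the 22 alternatives. The part of these cells in the results was not tested.

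**Figure D5:**
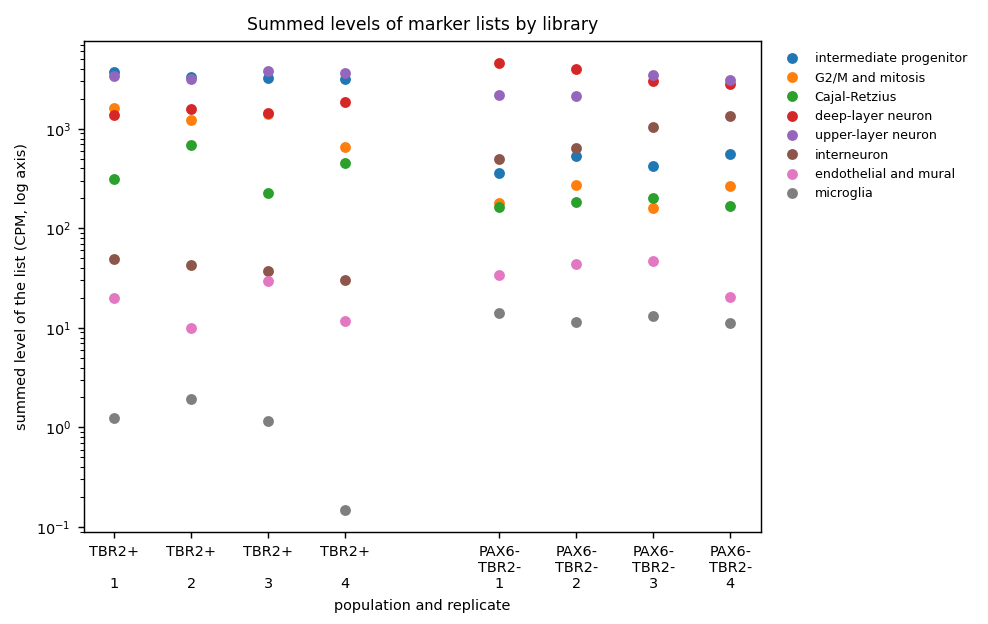
Summed level in CPM (log axis) of 8 marker lists in each WT library, with TBR2+ libraries left and PAX6-TBR2- libraries right; a list should be compared across libraries, not with another list. Interneuron sums run from 504 to 1359.6 CPM within PAX6-TBR2-, and Cajal-Retzius sums from 228 to 693 CPM within TBR2+.

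Metabolic and quality lists were read last. Of 18 glycolysis genes, 5 were higher in TBR2+ and 5 lower (median log2 fold change 0.17), near the shares over all genes tested (23.4% and 25.6%). The higher count was 2 without TBR2+ replicate 2 or without PAX6-TBR2- replicate 1, and 3 without PAX6-TBR2- replicate 4. The lower genes included the enolase gene Eno2 (-1.52, SE 0.22), the glucose transporter gene Slc2a3 (-1.37, SE 0.20) and the phosphofructokinase gene Pfkp, with 7.34, 15.3, 11.1 and 17 CPM in TBR2+, against 161, 112, 138 and 100.0 CPM in PAX6-TBR2- (-3.33, SE 0.22). Of 20 cytosolic ribosomal protein genes, 13 were higher and 0 lower (median log2 fold change 0.58), led by Rpl32 (1.05, SE 0.11); near-identical pseudogenes make their counts uncertain. Of 8 tested mitochondrially encoded genes, 4 were higher with edgeR and 2 with DESeq2. Among 9 immediate early and stress genes, Fos (1.27), Ier2 (1.28) and Ddit3 (0.46, lost under 10 of the 22 alternatives) were higher and Jun (-1.08), Dusp1 (-0.45) and Nr4a1 (-1.56) lower. Of 5 sex-linked genes, the Y-linked Ddx3y (1.09, SE 0.25) and Uty (0.77, SE 0.28) were called higher in TBR2+ and 3 did not pass. The count was 1 without TBR2+ replicate 1, PAX6-TBR2- replicate 3 or PAX6-TBR2- replicate 4, and 4 with length and GC trends removed. Reads of Xist and of Y-linked Kdm5d were present in all 8 libraries, and the part of sex composition in the results was not tested. The part of RNA quality in the results was not tested.

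Long genes were lower in TBR2+ more often than short ones. For protein-coding genes spanning under 10 kb the median log2 fold change was 0.17 (n = 2519), and it was 0.06 at 10 to 30 kb, -0.06 at 30 to 100 kb, -0.26 at 100 to 300 kb and -0.81 at 300 kb and over (n = 443). In that last class 59.4% of genes were lower and 20.1% higher, against 15% lower and 28.3% higher in the first. The channel list, with a median span of 184 kb, and the axon guidance list, with 172 kb, are among the long-gene lists, and the intermediate progenitor list, with 6.99 kb, among the short ones. The corrected fit named above used exon length and GC content, not the span of a gene. The part of gene span in the list results was not tested.

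The same contrast was fitted in the KO libraries, which share no sample with the WT ones. There 3038 of 13074 genes (23.2%) were higher in TBR2+ and 3264 (25.0%) lower. Of the 3016 genes higher in WT, 2969 were tested in KO and 2440 (82.2%) were called higher there, and of the 3293 lower in WT, 3261 were tested and 2710 (83.1%) were called lower. Opposite calls were made for 1 of the genes higher in WT and 5 of those lower in WT. The log2 fold change of Cckar was 6.05 in KO and 6.83 in WT, and that of Kif26b was 4.96 in KO and 4.91 in WT. Among lower genes, Dab1 was at -3.63 in KO and -4.66 in WT, and Gad2 at -8.77 in KO and -7.24 in WT. The difference between KO and WT passed for 7 of 13725 genes (0.0510%), named here after their values were seen. Slc17a6 was at 3.9 in KO and 3.01 in WT. Pdzrn3 was at 0.75 in KO and -1.31 in WT, Fosl2 at 0.46 in KO and -1.82 in WT, and Prokr2 at 0.99 in KO and -1.06 in WT. On the other side, Dscaml1 was at -1.64 in KO and 0.22 in WT, Pbx3 at -0.012 in KO and 2.17 in WT, and Akap12 at -0.37 in KO and 0.90 in WT. All 7 are values on the log2 scale, TBR2+ over PAX6-TBR2-.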

How the data were processed

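RNA was measured in sorted cells of E15.5 mouse cortex. Per the labels' protocols, RNA was isolated with RecoverAll reagents and turned into cDNA with Ovation RNA-seq V2, a linear amplification, before shearing and library preparation. Per the submitters' processing notes, the tools include cutadapt, STAR, featureCounts, FastQC and DESeq2, without versions, and the build is mm10. Strand setting and annotation release are not given in the sources used. The deposited tables hold raw counts per Ensembl gene, whose 2 lane columns were summed, and size-factor normalized signal values. The authors' normalized signal served only to recover whole reads for 1 alternative; those recovered reads were 1.47 times the raw counts in WT TBR2+ and 1.70 times in WT PAX6-TBR2-. Of 39017 genes, 37693 were named with GENCODE M21 (GRCm38), and 1324 unmatched identifiers held 0.215% to 0.251% of counts.

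Populations were compared in R 4.3.3 by edgeR 4.0.16 (TMM, filterByExpr, glmQLFit, glmQLFTest, two-sided), unpaired, with calls at an adjusted p under 0.05. The standard error (SE) is the log2 fold change divided by the square root of F, in size. KO minus WT differences were tested as interactions over 16 libraries. Levels in PAX6+ are CPM scaled over 12 WT libraries, without a test. Alternatives were DESeq2 1.42.0, limma-voom 3.58.1, other scalings, filters, sample sets, a replicate block, length and GC offsets, thinning of the deepest library and leaving out each library. The fitting code was tested on simulated data. Chi-square per degree of freedom was 0.98 to 1.02 between lanes of 1 library and 6.45 to 16.5 between libraries of a group, so no library was taken for another deposited again. No molecular identifiers were used, so counting error is a lower limit.

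Members and lists were chosen with earlier results of these data known. Named genes are the 15 in each direction with the largest fold change among called genes with non-overlapping libraries, at least 10 CPM in the higher group and a symbol that is no Gm, Rik or clone name. To these come up to 5 per list and direction with the smallest adjusted p, list members that did not pass, and Eomes, Pax6, Tbr1, Prdm16 and Mki67. Lhx8, C1qa, Tyrobp and Ctss are named for being at 0. One list symbol, Qki, had no match and was not analysed here, and 1 gene that the rule names is not reported here. Reads of genes overlapping on opposite strands may be mixed: 27 of the 185 genes named have an exon overlapped by another gene's exon on the other strand (Actl6a, Alas2, Bmpr1a, Ccnd2, Cdk4, Ctnna1, Ddit3, Dlx1, Dlx6, Dusp1, Ina, Jun, Kif26b, Mfap4, Nefm, Pfkp, Phf10, Prom1, Rbl2, Rnd2, Rpl32, Smarca2, Sox5, Sp9, Syn2, Zbtb18 and Zic1).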

Additional observations from a re-analysis of the deposited data

Results flagged for a closer look

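In 386 groups of 4 libraries (1 gene or depth measure each), 17 held a library far from the other 3, and chance alone marks about 1 in 20 groups. PAX6-TBR2- replicate 4 had 30.03 M counts, against 4.95 to 8.64 M in the others of its group. TBR2+ replicate 4 had 464 CPM of Tubb3 (others 347 to 359), 9.03 CPM of Eno2 (4.65 to 5.2), 21.6 CPM of Fosl2 (9.83 to 11.3) and 13.8 CPM of Kif23 (27.9 to 30.3). TBR2+ replicate 3 had 72.0 CPM of Prdm16 (41.9 to 45.6), 324 CPM of Rnd3 (264 to 272), 717 CPM of Epha4 (755 to 755), 94.1 CPM of Cux2 (77.5 to 79.3) and 0.499 CPM of Cntnap5c (all others at 0). TBR2+ replicate 2 had 43.2 CPM of Ebf3 (28.9 to 30.7). TBR2+ replicate 1 had 261 CPM of Cdk4 (309 to 318) and 0.277 CPM of Cacng3 (all others at 0). Within PAX6-TBR2-, replicate 3 had 2455 CPM of Cntn2 (2019.6 to 2088) and 0.120 CPM of Lhx8 (all others at 0), replicate 2 had 55.3 CPM of Phf10 (35.9 to 36.8) and replicate 1 had 246 CPM of Stmn2 (192 to 195).

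The population difference was another one in KO than in WT, by the interaction test, for 7 genes. On the log2 scale, KO minus WT, it was 2.28 for Fosl2, 2.06 for Pdzrn3, 2.06 for Prokr2 and 0.89 for Slc17a6, and -2.19 for Pbx3, -1.86 for Dscaml1 and -1.26 for Akap12.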

How the results depend on the processing

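All 4 counts of called genes stayed within 1.5 times of their values in each of 22 alternatives: 2447 to 3967 genes higher in TBR2+ and 2844 to 3943 lower, and at least 2-fold, 1056 to 1524 higher and 1507 to 2391 lower. With each library left out in turn they were 2701 to 3097 higher and 3010 to 3294 lower, and at least 2-fold, 1126 to 1321 higher and 1636 to 1779 lower. DESeq2 gave 3029 higher and 3219 lower. Recovered reads, an alternative chosen after seeing the data, gave 3281 higher and 3500 lower. Same-numbered libraries deviated with correlations of -0.18 to -0.04, and libraries of different numbers with -0.14 to 0.22. Such correlations cannot show whether libraries share embryos, so a pairing remains unknown. The replicate block gave 2694 higher and 2984 lower. Of 162 called genes named, 143 kept call and direction in every alternative, and 14 of the 25 genes named without a call passed in at least 1. The sign turned in the KO libraries for Pdzrn3 (0.75), Prokr2 (0.99) and Fosl2 (0.46), called in both genotypes, and for Dscaml1 (-1.64), called in KO only. It also turned for Akap12 (-0.37, adjusted p = 0.1011) and Pbx3 (-0.012, adjusted p = 0.9714), which were not called in KO. The cause was not tested. Low counts limit genes near 0 in TBR2+, whose fitted folds can move with 1 library. Without TBR2+ replicate 4 Ldb2 was at -6.29, and without replicate 1 Sst was at -7.43. Population and library prefix cannot be told apart, and the number of embryos behind a library is unknown.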

Other observations

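Several genes needed for cortical migration did not pass the test between the populations. Pafah1b1, the LIS1 gene of dynein regulation, had 199.9, 199, 218 and 210.3 CPM in TBR2+, against 193, 217, 171 and 196 CPM in PAX6-TBR2- (log2 fold change 0.09, SE 0.10). Its partner Ndel1 was at 0.01 (SE 0.16), the actin crosslinker gene Flna at 0.22 (SE 0.11) and the zinc finger repressor gene Zbtb18 at -0.06 (SE 0.10). Among chromatin genes, the BAF core subunits Smarcc2 (0.05, SE 0.10) and Arid1b (0.01, SE 0.10) and the methylcytosine oxidases Tet2 (0.11, SE 0.10) and Tet3 (0.09, SE 0.11) did not pass either. With length and GC trends removed, 6 of these 8 genes were called higher in TBR2+: Pafah1b1 at 0.21, Flna at 0.58, Smarcc2 at 0.27, Arid1b at 0.44, Tet2 at 0.49 and Tet3 at 0.62 on the log2 scale. Their calls thus depend on that correction, which also moved the median log2 fold change over all genes tested from 0.01 to 0.098. A p that misses the threshold does not show equal levels.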
